A study of Mus musculus with 9 samples.

Results

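Activated CD8 T cells of the clone R7-III were compared with those of the clone R7-I, which bind the same peptide and are described as differing in affinity. Both clones recognize a peptide of ROP7, a protein of the parasite Toxoplasma gondii, presented by the mouse class I molecule H-2Ld. By the series' description, the affinity for the peptide falls from R7-I to R7-III to R7-II, while the self-reactivity, read from CD5 and Nur-77, falls from R7-III to R7-I to R7-II. In the study's membrane-anchored measurement, R7-I and R7-III had similar affinities, and R7-I had the higher adhesion frequency. The comparison uses 6 of the 9 libraries deposited, 3 of R7-III and 3 of R7-I, chosen by the clone in their labels. The 3 libraries of R7-II entered the fit of the spread and are given beside some values for reference. The cells came from transnuclear mice, which were cloned from the nucleus of a single ROP7-specific CD8 T cell and carry its rearranged receptor at the natural locus, so that each clone stands for 1 receptor. Per the study's methods, these mice were on a BALB/c background with an intact Rag2 gene. Splenocytes of all lines were kept overnight at 37°C with 10 µM ROP7 peptide and 10 ng/ml interleukin-2 (IL-2), and live cells were then sorted as CD3+ CD8+ H-2Ld-Rop7+, with a purity of 90 to 95%. Age and sex of the mice are not given, and although the labels call the samples biological replicates, they do not say that they came from separate mice, so p-values measure the spread between these samples.

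A T cell receptor that binds its ligand signals through the CD3 chains and kinases such as Lck to calcium, ERK and NF-κB. The signal switches on early genes such as Nr4a1, Egr1 and Myc within hours, then cytokines, and later carries the resting cell through G1 into DNA replication and mitosis. CD5, a surface protein that dampens receptor signals, and Nur-77, the product of Nr4a1, are commonly read as reporters of the strength of that signal. Entry into S phase rests on E2F transcription factors, which are freed when cyclins D and E with their kinases inactivate the retinoblastoma family, and genes of mitosis follow under MYBL2, FOXM1 and the release of the DREAM repressor from their promoters.

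Gene levels were analysed as log2(TPM + 1), where TPM is a relative abundance that is corrected for transcript length and has the same sum in every library. TPM keeps no depth, so no counting error is given. Between 13738 and 14434 genes were above 0 in a library. Pearson correlations across genes were 0.992 to 0.997 within a clone and about 0.991 between R7-I and R7-III, and no libraries held the same values. The T lineage labels held in all 6 libraries. Cd8a was at 339 to 349 TPM in R7-I and at 372 to 380 TPM in R7-III, Cd8b1 at 310 to 332 TPM over both clones, and Lck at 360 to 407 TPM. Markers of other cell types were low. The 14 B cell genes summed to 12.1 to 20.2 TPM in R7-I and to 5.97 to 9.55 TPM in R7-III, and the 10 MHC class II genes to 34.9 to 53.6 and 26.3 to 31.9 TPM. Myeloid genes summed to 6.88 to 7.92 and 7.29 to 9.40 TPM, CD4 T cell genes to 102 to 123 and 120 to 127 TPM, NK cell genes to 11.1 to 15.6 and 11.7 to 13.5 TPM, platelet genes to 1.39 to 1.54 and 1.16 to 1.54 TPM, and erythroid genes to 45.3 to 131 and 14.6 to 42.0 TPM. Of these 7 lists, 0 genes were called between the clones in limma, while 4 B cell, 3 MHC class II, 1 myeloid, 2 erythroid and 1 CD4 T cell gene had an unadjusted p under 0.05. Over all 11330 genes tested, 3661 had an unadjusted p under 0.05. The part of these markers in the results was not tested. Elane, Hbb-bs, Pf4, Ppbp, Gp9, Treml1 and 5 Klra genes were listed at 0 in all 6 libraries.

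Activated R7-III cells held more RNA of cell cycle genes than activated R7-I cells, while the genes that report early receptor signals did not pass the test. Of 11330 genes with a TPM above 1 in at least 1 of the 9 libraries, 953 (8.41%) passed an adjusted p of 0.01 in limma (Benjamini-Hochberg over all genes tested). In R7-III 789 of them were higher (6.96%) and 164 lower (1.45%). Most differences were small, as the median log2 fold change was 0.44 among the genes called higher and -0.32 among those called lower. Over 2-fold were 112 genes (0.989%), 95 higher (0.838%) and 17 lower (0.15%), and for each of them the 3 libraries of one clone lay above the 3 of the other. Over all genes tested, the libraries of the clones did not overlap for 41.9%. The split by direction depended on the scaling. With TPM, the median log2 fold change over all genes was 0.04 and 82.8% of the genes called were higher in R7-III. With TPM rescaled by median-of-ratios factors the median was -0.0034 and 56.6% of 973 genes called were higher, and after quantile normalization 62.6% of 682. RNA per cell and the share of cells that hold it cannot be told apart in these bulk samples. The count fell to 422 genes without R7-I replicate 1, to 574 and 619 without R7-I replicates 2 and 3, and to 487, 462 and 523 without R7-III replicates 1, 2 and 3.

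**Figure D1:**
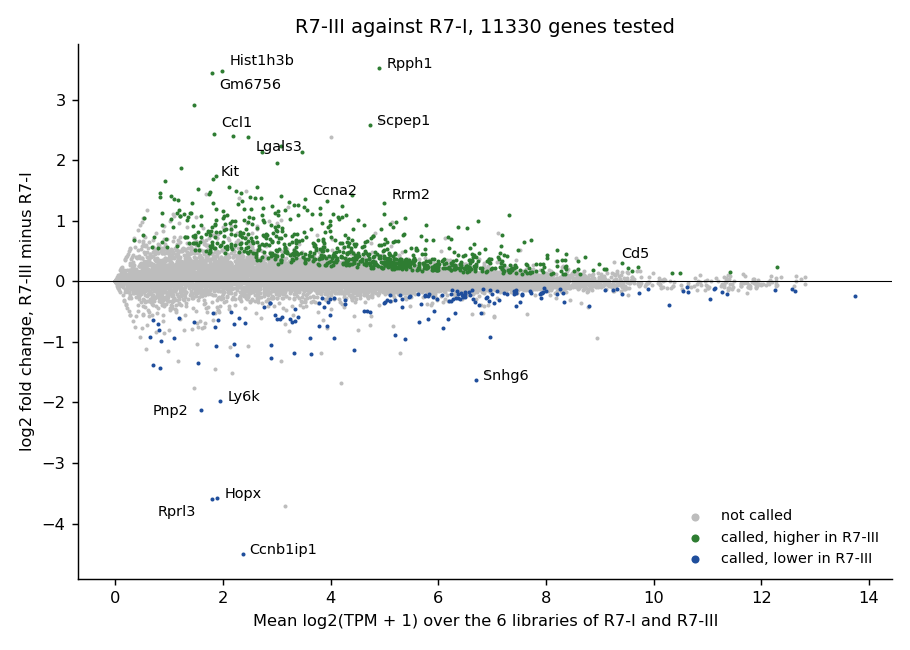
Log2 fold change of R7-III minus R7-I against the mean log2(TPM + 1) over their 6 libraries, 1 point for each of 11330 genes tested. Green points are the 789 genes called higher in R7-III, blue points the 164 called lower, grey points those not called, and the largest differences lie among genes of low or middle level.

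Cell cycle genes made up a large share of the differences. Over 6 lists of cell cycle genes, each gene counted once, 157 of 299 genes tested were called higher in R7-III (52.5%) and 4 lower, with a median log2 fold change of 0.44. Of the 11031 genes in none of these lists, 632 were called higher (5.73%) and 160 lower, with a median of 0.04. Among the 95 genes called over 2-fold higher, 39 belonged to these lists. The lists were written with earlier results of these data known, so their direction is not independent evidence.

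Most mitosis and spindle genes were higher in R7-III. Of 87 mitosis and spindle genes tested, 62 were called higher in R7-III and 0 lower, and 25 did not pass (71.3% called, against 8.41% of all genes). The median log2 fold change of the list was 0.64. Cyclin A2 (Ccna2), which drives S phase and the entry into mitosis, was at 6.03, 6.42 and 5.98 TPM in R7-I and at 17.3, 15.2 and 19.8 TPM in R7-III. All R7-III libraries lay above all R7-I libraries, and the log2 fold change was 1.36 ± 0.0935 (standard error, adjusted p = 1.22e-05 from limma). Mki67, which encodes the proliferation marker Ki-67, was at 1.57, 1.75 and 2.23 TPM in R7-I and at 6.53, 6.22 and 8.24 TPM in R7-III, again without overlap. Its log2 fold change of 1.49 ± 0.146 was the largest of the list (adjusted p = 1.26e-04 from limma). Birc5 (survivin) and Aurkb (Aurora B), both subunits of the chromosomal passenger complex, rose from 8.83 ± 2.29 to 23.3 ± 1.84 TPM and from 6.46 ± 0.780 to 16.5 ± 1.22 TPM (mean ± SD, n = 3 libraries, here and below). Top2a, the topoisomerase that untangles sister chromatids, rose from 28.1 ± 1.84 to 59.4 ± 3.86 TPM. Tuba1b, an alpha tubulin and the most abundant member, differed least among those named, from 2588 to 2889 TPM (log2 fold change 0.16), and its call was lost after median-of-ratios scaling (adjusted p = 0.136 from limma). After median-of-ratios scaling 56 genes of the list were called higher, and after quantile normalization 43. Without R7-I replicate 1 the number of genes called fell to 37, and without R7-III replicate 1, 2 or 3 to 40, 40 and 41. In R7-II, 60 of the 62 genes called had a mean below those of both other clones, with Ccna2 at 1.47 ± 0.0971 TPM and Mki67 at 0.763 ± 0.263 TPM.

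**Figure D2:**
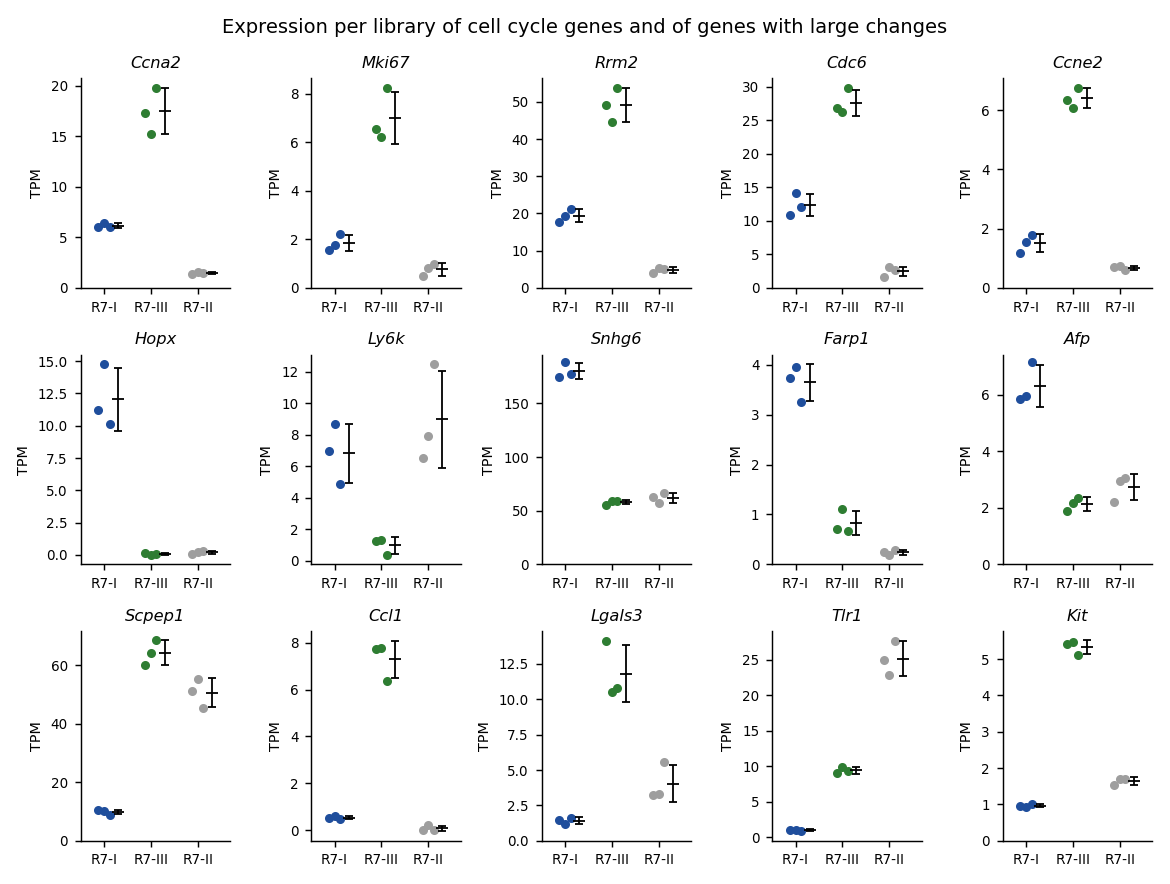
TPM per library of 15 genes in R7-I (blue), R7-III (green) and R7-II (grey), with bars for the mean ± SD of 3 libraries and a separate linear axis for each gene. The top row holds cell cycle genes, with R7-III above R7-I and R7-II lowest. The middle row holds genes lower in R7-III than in R7-I and the bottom row genes higher in R7-III, where R7-II lies near R7-I, near R7-III or beyond both.

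Many promoters of these genes carry sequences through which the cell cycle is known to act. The cell cycle homology region (CHR), with the letters TTTGAA, is bound by the DREAM and MYBL2 complexes. On either strand, it was in 48 of 82 promoters of mitosis and spindle genes (58.5%, from 75 of 87 genes found in the RefSeq promoter table), against 17.9% of all 32841 promoters in the table, each covering 250 bases before to 50 bases after a transcript start, which for some genes lies inside the gene. CCAAT, a motif of NF-Y, was in 76.8% of the mitosis promoters and 37.4% of all. Such a match is a description of the letters and not evidence of binding. All tested genes of the list were searched, called or not. The promoter table holds 27018 genes, against 11330 tested here, so its shares also cover genes that were not tested. The 150 bases before the start of Kif11, Hmgb2 and Smc2 are printed because these were the called genes of the list with the largest log2 fold changes whose windows held a CHR and lay outside annotated exons and outside the gene's own RefSeq interval. Kif11 encodes a kinesin of the spindle, and its log2 fold change was 1.09. Hmgb2, a chromatin protein of dividing cells, was at 58.0 ± 2.89 and 95.1 ± 5.47 TPM (log2 fold change 0.71), and Smc2, a condensin subunit, at 40.7 ± 1.76 and 51.8 ± 1.42 TPM (0.34). Capitals mark the CHR on the strand of the gene (TTTGAA) or on the other strand (TTCAAA). All lines are 5′ to 3′ on the strand of the gene in GRCm38.p6, the build also named mm10.
Kif11, chr19:37376232-37376381, plus strand: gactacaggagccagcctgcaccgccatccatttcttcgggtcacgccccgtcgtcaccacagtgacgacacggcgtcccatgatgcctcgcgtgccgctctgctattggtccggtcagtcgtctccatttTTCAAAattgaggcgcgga
Hmgb2, chr8:57511693-57511842, plus strand: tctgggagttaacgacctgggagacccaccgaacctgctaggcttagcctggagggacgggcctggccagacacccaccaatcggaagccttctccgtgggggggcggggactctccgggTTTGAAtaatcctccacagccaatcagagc
Smc2, chr4:52439071-52439220, plus strand: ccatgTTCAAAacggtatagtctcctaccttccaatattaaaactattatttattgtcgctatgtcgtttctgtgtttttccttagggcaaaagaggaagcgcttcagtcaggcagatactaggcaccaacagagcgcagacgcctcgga

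Most genes of DNA replication rose as well. Of 57 genes of replication origins and forks tested, 42 were called higher in R7-III and 0 lower (73.7% called, against 8.41% of all genes). The median log2 fold change of the list was 0.38. Cdc6, which loads the MCM helicase on origins, was at 10.9, 14.2 and 12.03 TPM in R7-I and at 26.8, 26.2 and 29.9 TPM in R7-III. Its groups did not overlap, and the log2 fold change was 1.10 ± 0.143 (adjusted p = 6.43e-04 from limma). Clspn (claspin, a fork checkpoint adaptor) had the largest log2 fold change of the list with 1.27, from 5.82 ± 0.748 to 15.4 ± 1.43 TPM. Cdc45, a subunit of the active helicase, rose from 38.9 ± 4.11 to 75.0 ± 3.02 TPM. Mcm10, another helicase factor, was at 20.8 ± 3.76 and 46.1 ± 2.88 TPM, and its call was lost in 5 of the 9 fits without 1 library (adjusted p of up to 0.0294 without R7-I replicate 1). The sliding clamp Pcna, the most abundant member, was at 742, 765 and 791 TPM in R7-I and at 902, 887 and 923 TPM in R7-III, so that a high level went with a small log2 fold change of 0.24 ± 0.0291 (adjusted p = 4.61e-04 from limma). Without R7-I replicate 1, 27 genes of the list were called. After median-of-ratios scaling 34 were called higher and 1 lower. In 40 of the 42 genes called, the R7-II mean was below those of both other clones.

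Promoters of the replication genes were searched for the E2F letters TTTGGCGC, TTTCCCGC, TTTGCCGC and TTTCGCGC on both strands. At least 1 match was in 19 of 58 promoters (32.8%, from 46 of 57 genes found in the table). The share was 2.27% of all promoters in the table, which also covers genes not tested. CCAAT was in 53.4% of the replication promoters. By the same rule as for the CHR, the window shown is that of Mcm6, a helicase subunit. Capitals mark its E2F letters, 2 matches on the strand of the gene and 1 on the other strand that overlaps with 1 of them. The log2 fold change of Mcm6 was 0.36, and its call was lost without R7-I replicate 1 (adjusted p = 0.01003 from limma) and after median-of-ratios scaling.
Mcm6, chr1:128359706-128359855, minus strand: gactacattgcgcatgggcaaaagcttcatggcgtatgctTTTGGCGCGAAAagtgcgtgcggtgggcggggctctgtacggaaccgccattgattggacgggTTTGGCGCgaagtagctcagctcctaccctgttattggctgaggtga

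Among the regulators of G1, cyclin E2 and several transcription factors rose, while D cyclins and kinase inhibitors did not pass. Of 32 genes tested of G1 cyclins, kinase inhibitors, E2F factors and pocket proteins, 10 were called higher in R7-III and 0 lower. This was a share of 31.2%, against 8.41% of all genes, and the median log2 fold change was 0.24. Cyclin E2 (Ccne2), a partner of CDK2 at the start of S phase, was at 1.19, 1.56 and 1.79 TPM in R7-I and at 6.35, 6.08 and 6.76 TPM in R7-III. Its log2 fold change was the largest of the list, 1.56 ± 0.110 (adjusted p = 1.41e-05 from limma), with no overlap. Mybl2, a transcription factor of S phase and mitosis genes, rose from 6.94 ± 1.34 to 16.9 ± 1.62 TPM, and the E2F family members E2f2 and E2f8 from 0.790 ± 0.155 to 2.96 ± 0.610 TPM and from 0.667 ± 0.225 to 2.60 ± 0.535 TPM. E2f1 was at 27.4 ± 1.40 and 41.6 ± 3.63 TPM without overlap and missed the threshold (adjusted p = 0.0122 from limma), but it was called with only the 6 libraries in the fit (0.00107) and without R7-II replicate 1 or 2 (6.50e-04 and 0.00648). Cyclin D2 (Ccnd2) was at 493 ± 17.2 and 525 ± 66.2 TPM, and the kinase inhibitors Cdkn1a (p21) and Cdkn1b (p27) at 63.0 ± 13.6 and 64.1 ± 1.74 TPM and at 19.8 ± 0.418 and 21.4 ± 0.921 TPM, none of them called. Without R7-III replicate 1, Ccnd2 was called with a log2 fold change of 0.19 (adjusted p = 0.00744 from limma). Cdk4, the most abundant member, was at 612 ± 12.7 and 671 ± 11.2 TPM (adjusted p = 0.019 from limma, and 0.00591 without R7-II replicate 1). Of 26 genes tested that mark quiescent T cells, 0 were called in limma, at a median log2 fold change of 0.05. An unadjusted p under 0.05 was reached by 8 of them, against 3661 of all 11330 genes. The count of 10 fell to 6 when either R7-I replicate 1 or R7-III replicate 2 was left out, and to 5 without R7-III replicate 3.

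The supply of deoxynucleotides followed the replication genes for some enzymes. Of 31 nucleotide synthesis genes tested, 10 were called higher and 3 lower (41.9% called, against 8.41% of all genes). Rrm2, the regulated subunit of ribonucleotide reductase, was at 17.8, 19.3 and 21.2 TPM in R7-I and at 49.0, 44.6 and 53.8 TPM in R7-III, which gave a log2 fold change of 1.29 ± 0.105 (adjusted p = 4.02e-05 from limma). Thymidine kinase (Tk1) rose from 8.35 ± 1.89 to 20.4 ± 0.735 TPM. The list had a median of only 0.11, since most enzymes of base synthesis did not pass. Nme2, a nucleoside diphosphate kinase and the most abundant member, was lower in R7-III, from 1679.6 to 1493 TPM (log2 fold change -0.17), and missed the threshold without R7-III replicate 2 and after quantile normalization (adjusted p = 0.0107 and 0.158 from limma). The other genes called lower were Pnp2, beside the receptor alpha locus, and Impdh1, an enzyme of guanine nucleotide synthesis with a log2 fold change of -0.21 and an adjusted p of 0.00983 in limma. That call of Impdh1 was lost in 7 of the 9 fits that left out 1 library (adjusted p of up to 0.0476 without R7-I replicate 1).

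Repair genes that act on replication forks moved in the same direction. Of 41 genes of homologous recombination and the Fanconi anaemia pathway tested, 19 were called higher and 0 lower (46.3% called, against 8.41% of all genes). The median log2 fold change of the list was 0.35. Rad51ap1 and Rad54l, both factors of homologous recombination, rose from 11.9 ± 1.38 to 26.1 ± 3.98 TPM and from 11.3 ± 1.44 to 24.5 ± 1.79 TPM. Fancd2, the central substrate of the Fanconi pathway, rose from 3.88 ± 0.564 to 8.56 ± 0.590 TPM, and Bard1, the partner of BRCA1, from 2.93 ± 0.433 to 6.69 ± 0.347 TPM. The mismatch repair gene Msh6, the most abundant member, rose from 62.6 ± 1.07 to 77.4 ± 0.835 TPM. The gene listed as 2810417H13Rik, now named Pclaf, encodes a PCNA-associated factor and belonged to no list. It was at 3.51, 4.75 and 4.58 TPM in R7-I and at 23.3, 25.7 and 18.2 TPM in R7-III, a log2 fold change of 2.14 ± 0.158 (adjusted p = 1.91e-05 from limma).

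Histone genes were called in both directions. Of 51 genes tested of the histone clusters, 14 were called higher in R7-III and 1 lower (29.4% called, against 8.41% of all genes). The median log2 fold change of the list was 0.73. Hist1h3b was at 0.66, 0 and 0 TPM in R7-I and at 10.6, 13.3 and 12.9 TPM in R7-III, the second largest rise of all genes. Hist1h3h was listed at 0 throughout R7-I and was at 11.6, 6.52 and 3.54 TPM in R7-III, so no fold is given, and its call was lost without any 1 of R7-I replicates 1, 2 and 3 or R7-III replicates 1 and 2 (adjusted p of up to 0.0163 from limma). Hist1h2bj, the most abundant member, went the other way, from 19.2, 24.1 and 23.2 TPM in R7-I to 11.5, 9.81 and 11.8 TPM in R7-III (log2 fold change -0.94 ± 0.115, adjusted p = 4.61e-04 from limma). The libraries were made from poly(A) RNA, while most replication-dependent histone transcripts lack a poly(A) tail, and these genes are near copies of each other between which reads can be split, so the single values are uncertain. Leaving out replicate 1 of either clone lowered the count of 14 to 6, and leaving out replicate 2 lowered it to 9 for R7-I and to 8 for R7-III. Of the 14 genes, 10 had an R7-II mean between the other clones.

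**Figure D3:**
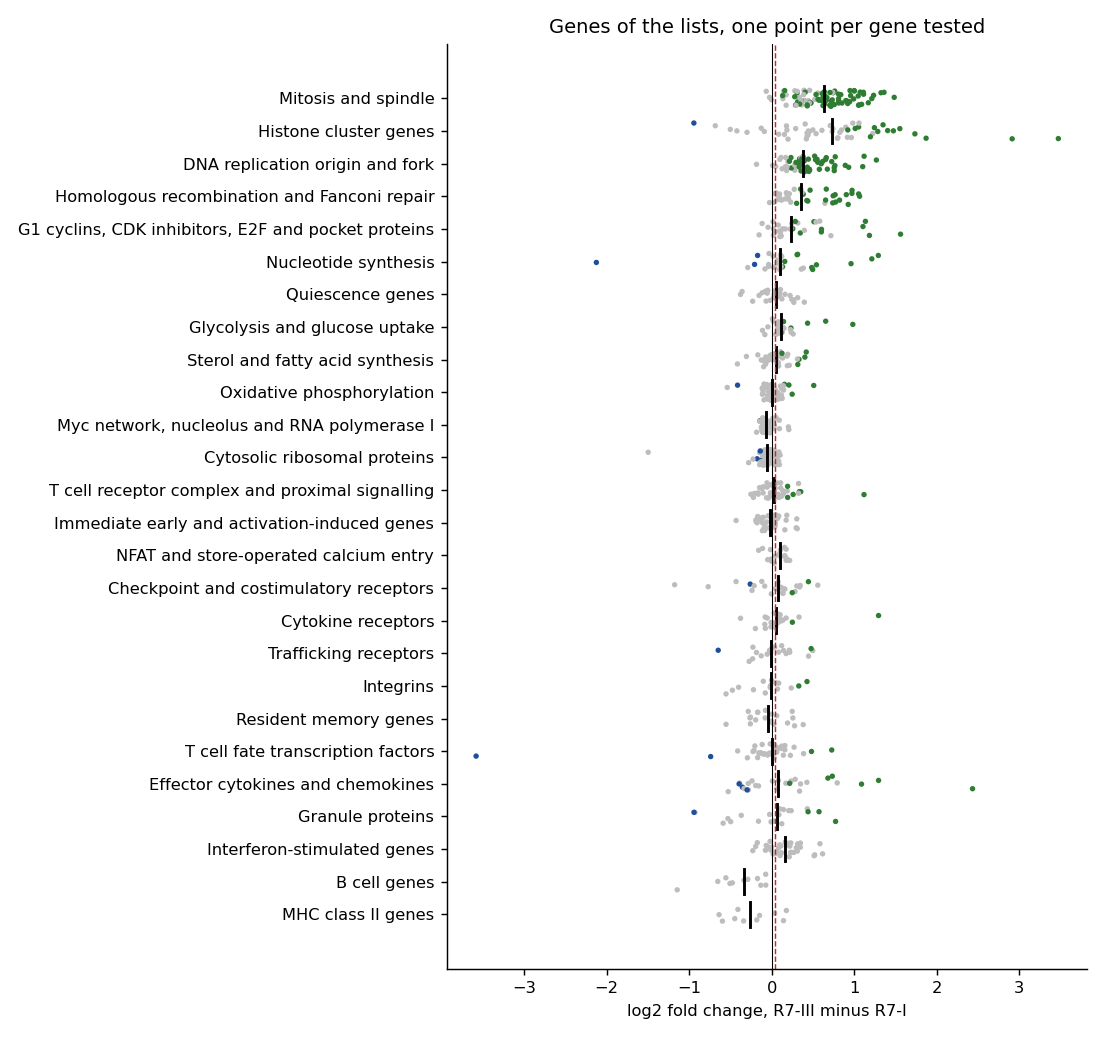
Log2 fold changes of R7-III minus R7-I for the genes tested of 26 lists, 1 point per gene, with green for called higher, blue for called lower and grey for not called. Black bars mark each list's median and the dashed line the median of all genes tested (0.04). The bars of mitosis, histone, replication and repair genes lie at 0.35 to 0.73, and those of signalling, receptor and metabolic lists lie near the dashed line.

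Some genes of the receptor and its proximal signalling proteins rose. Of 39 genes tested, 6 were called higher in R7-III and 0 lower (15.4%, against 8.41% of all genes), with a median log2 fold change of 0.03. The CD3 chains Cd3g, Cd3e and Cd3d were higher by 0.35, 0.26 and 0.19 on the log2 scale. Cd3g was at 295, 280 and 287 TPM in R7-I and at 370, 375 and 356 TPM in R7-III, and it was higher still in R7-II at 503 ± 7.67 TPM. Ubash3b, which encodes Sts-1, a phosphatase that dampens receptor signals, had the largest log2 fold change of the list. It was at 9.50, 11.6 and 9.59 TPM in R7-I, at 22.4, 23.8 and 23.9 TPM in R7-III and at 4.34 ± 1.25 TPM in R7-II (log2 fold change 1.12 ± 0.145 between R7-III and R7-I, adjusted p = 6.43e-04 from limma). Ptpn6, the phosphatase SHP-1, which also restrains receptor signals, rose from 260 ± 7.0 to 329 ± 9.53 TPM, and missed the threshold after median-of-ratios scaling (adjusted p = 0.0111 from limma). Prkcq, the kinase that links the receptor to NF-κB, was higher by 0.19, a call lost in 7 of the 9 fits that left out 1 library (adjusted p of up to 0.0462 without R7-I replicate 1). That of Cd3d was lost in 5 of them (up to 0.0175 without R7-III replicate 2). After median-of-ratios scaling the list held 3 genes called higher and 1 lower, with a median of -0.03.

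Neither of the 2 genes behind the labelled order of self-reactivity was called in the fit of all 9 libraries. Their values here are RNA after overnight culture with peptide, which may differ from the measure behind the label. Cd5 (chromosome 19, 10718107 to 10739026) was at 541, 564 and 531 TPM in R7-I and at 673, 689 and 691 TPM in R7-III. The libraries did not overlap, and the log2 fold change was 0.33 ± 0.0893, but with an adjusted p of 0.0287 in limma Cd5 was not called. The exact two-sided permutation test gave p = 0.1, which is the lowest p possible for 3 libraries against 3. The R7-II libraries, which spread from 304 to 423 TPM, share the estimate of the error. With only the 6 libraries of R7-I and R7-III in the fit the adjusted p was 2.80e-04, and without R7-II replicate 2 or 3 it was 0.00242 and 0.0037. Nr4a1 (chromosome 15, 101253902 to 101274795) was at 219, 257 and 260 TPM in R7-I and at 222, 231 and 223 TPM in R7-III, which overlapped (log2 fold change -0.12 ± 0.0747, adjusted p = 0.31 from limma).

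**Figure D4:**
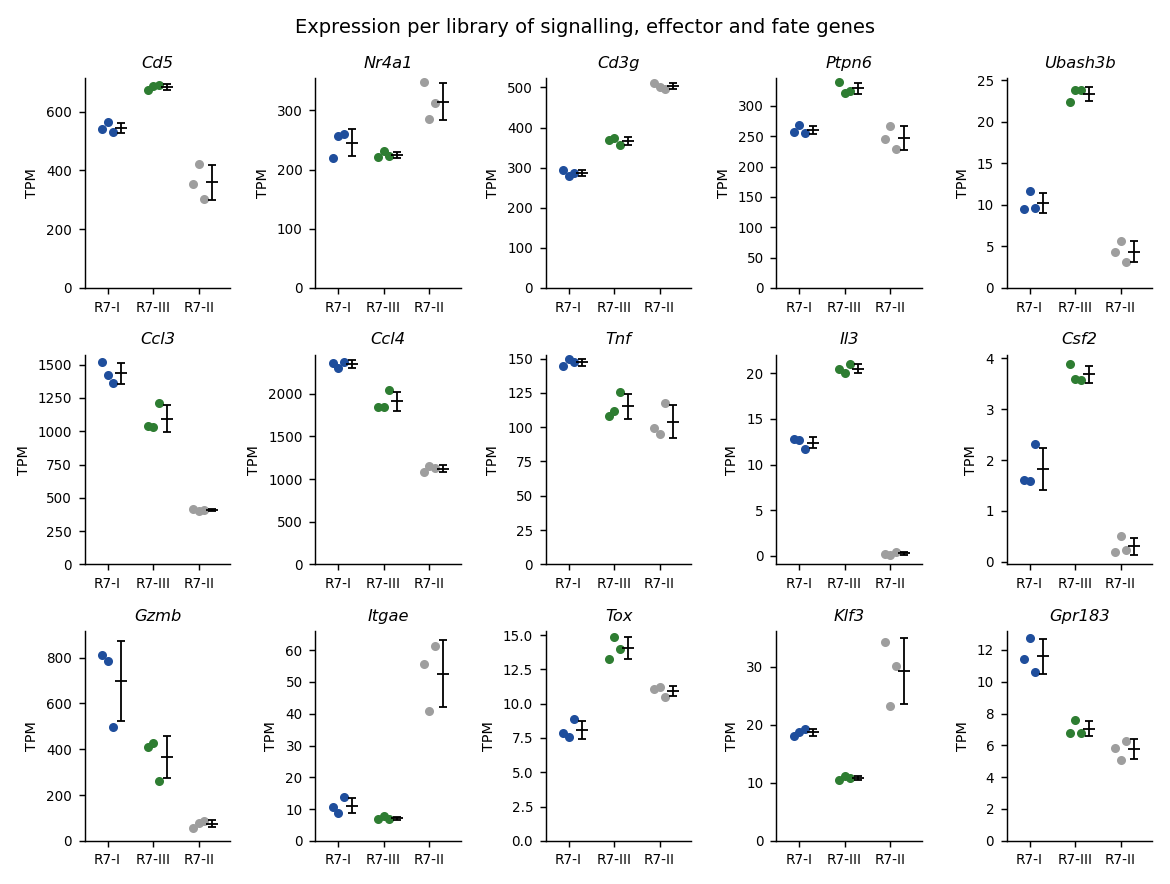
TPM per library of 15 signalling, effector and fate genes in R7-I (blue), R7-III (green) and R7-II (grey), with bars for the mean ± SD of 3 libraries and a separate linear axis for each gene. Cd5 was at 531 to 564 TPM in R7-I and at 673 to 691 TPM in R7-III, while the Nr4a1 values of these clones overlap.

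Early and feedback genes downstream of the receptor mostly did not pass. Of 36 immediate early and activation-induced genes tested, 0 were called in limma and 11 had an unadjusted p under 0.05, against 3661 of all 11330 genes. The median log2 fold change of these 36 was -0.02. Myc, the most abundant of them, was at 648 ± 12.4 TPM in R7-I and at 598 ± 11.3 TPM in R7-III (log2 fold change -0.12, adjusted p = 0.0401). Of 19 genes of NFAT and store-operated calcium entry, 0 were called in limma (6 at an unadjusted p under 0.05), and Nfatc1 was at 131 ± 4.72 and 139 ± 3.48 TPM. Among 20 NF-κB genes, 1 was called (5.0%, against 8.41% of all genes), Nfkb1, which encodes p105 and p50. It fell from 730, 740 and 719 TPM in R7-I to 633, 628 and 624 TPM in R7-III (log2 fold change -0.22 ± 0.0217, adjusted p = 1.44e-04 from limma). Among 17 genes of ERK feedback, 1 was called (5.88%, against 8.41% of all genes), Dusp5, a nuclear ERK phosphatase. Its log2 fold change was -0.33 (138 ± 13.7 to 109 ± 4.19 TPM). The call was lost in 7 of the 9 fits without 1 library (adjusted p of up to 0.0431 from limma without R7-III replicate 2).

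Cytokine and chemokine genes were called in both directions. Of 27 tested, 6 were higher and 3 lower in R7-III (33.3%, against 8.41% of all genes), with a median log2 fold change of 0.08. Ccl1, the ligand of CCR8 (chromosome 11, 82176666 to 82179812), was at 0.53, 0.59 and 0.46 TPM in R7-I, at 7.73, 7.76 and 6.37 TPM in R7-III and at 0 to 0.21 TPM in R7-II. This was a log2 fold change of 2.44 ± 0.123 and no overlap between R7-III and R7-I (adjusted p = 1.38e-06 from limma). Csf1, the growth factor of macrophages, rose from 1.24 ± 0.280 to 4.49 ± 0.326 TPM. Interleukin-3 (Il3) was at 12.8, 12.7 and 11.7 TPM in R7-I and at 20.5, 20.1 and 21.0 TPM in R7-III (log2 fold change 0.68 ± 0.0899, adjusted p = 6.87e-04 from limma), and at 0.12 to 0.41 TPM in R7-II. Csf2 (GM-CSF) went from 1.83 ± 0.416 to 3.68 ± 0.170 TPM, Ccl5 from 4.55 ± 0.142 to 10.9 ± 1.16 TPM and Tgfb1 from 103 ± 4.32 to 121 ± 2.1 TPM.

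The abundant inflammatory chemokines and tumour necrosis factor were lower in R7-III. Ccl3, an inflammatory chemokine, was at 1518, 1420 and 1366 TPM in R7-I and at 1037, 1033 and 1210 TPM in R7-III, without overlap (log2 fold change -0.39 ± 0.0580, adjusted p = 0.00126 from limma). Ccl4, a related chemokine, fell from 2348 ± 43.2 to 1913 ± 110 TPM (log2 fold change -0.30), a call lost after quantile normalization. These neighbours overlap in the annotation of chromosome 11, and the reads were not strand-specific, so that their reads may be split. Tnf was at 147 ± 2.54 and 115 ± 9.20 TPM (log2 fold change -0.35). Xcl1, the most abundant member, was at 3625 and 3171 TPM and was not called (adjusted p = 0.0231 from limma), nor were Ifng with 149 ± 14.4 and 122 ± 5.39 TPM (adjusted p = 0.292) and Il2 with 153 ± 12 and 196 ± 26.6 TPM (adjusted p = 0.14). The calls of Csf2, Ccl5, Tgfb1 and Tnf were lost in 5 to 7 of the 9 fits that left out 1 library, with an adjusted p of up to 0.024, 0.0317 and 0.0182 without R7-I replicate 1 and of up to 0.0414 without R7-III replicate 2.

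Granule genes also split. Of 20 tested, 3 were higher and 1 lower (20.0%, against 8.41% of all genes), with a median log2 fold change of 0.06. Serpinb6a, an inhibitor of granule proteases, rose from 6.65 ± 0.518 to 12.1 ± 1.22 TPM, and Unc13d, which primes granules for release, from 18.7 ± 1.21 to 28.3 ± 2.55 TPM. Rab27a, the GTPase that docks granules, was at 21.2 ± 0.983 and 29.1 ± 0.992 TPM, and Gzmc (granzyme C) at 2.01 ± 0.638 and 0.550 ± 0.161 TPM, both called but lost in some fits without 1 library (adjusted p of up to 0.0217 without R7-III replicate 1 and 0.0184 without R7-III replicate 3). Granzyme B (Gzmb), the main death-inducing protease, was at 813, 785 and 496 TPM in R7-I and at 410, 426 and 261 TPM in R7-III. The groups did not overlap, yet the spread within both left it above the threshold (log2 fold change -0.93 ± 0.229, adjusted p = 0.0184 from limma). Without R7-I replicate 3 the adjusted p was 0.00904, and without R7-I replicate 1 it was 0.0816. Gzmc and Gzmb lie 2.007 and 2.035 Mb from the receptor alpha locus on chromosome 14, around which many genes were called. Whether their values follow from this position was not tested. Serglycin (Srgn), the most abundant granule gene, was at 710 ± 38.2 and 635 ± 15.5 TPM and was called only without R7-I replicate 2 (adjusted p = 0.00707).

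Lists of surface receptors that place and restrain T cells, with some linked genes, were called at shares of 8.0% (cytokine receptors), 9.52% (trafficking receptors), 12% (checkpoint and costimulatory receptors) and 13.3% (integrins), against 8.41% of all genes. The ligand Csf1 and the integrin activator Fermt3, which are not receptors, were among the genes called. Of 25 checkpoint and costimulatory receptors tested, Tigit and Cd160, both inhibitory, were called higher (log2 fold change 0.45 and 0.25), and Cd226, the activating counterpart of TIGIT, was called lower (-0.26, from 97.4 ± 2.80 to 81.1 ± 1.34 TPM). All 3 calls were lost without any 1 of the R7-I or R7-III libraries, with an adjusted p of up to 0.0357, 0.0236 and 0.0189 from limma. Pdcd1 (PD-1) was at 126 ± 2.24 and 140 ± 12.2 TPM, Ctla4 at 11.9 ± 1.54 and 13.4 ± 1.63 TPM, and Tnfrsf9 (4-1BB), the most abundant of the list, at 507 ± 10.7 and 378 ± 49.1 TPM (adjusted p = 0.0993, 0.287 and 0.0119 from limma). Tnfrsf9 was called with only the 6 libraries in the fit (adjusted p = 0.00823) and without R7-II replicate 2 or R7-III replicate 2 (0.00414 and 0.00611).

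Among 21 trafficking receptors, Selplg, the P-selectin ligand, was called higher (65.8 ± 4.29 to 92.2 ± 8.44 TPM) and Gpr183, the receptor for oxysterols that guides lymphocytes in lymphoid tissue, lower. Gpr183 was at 11.4, 12.8 and 10.6 TPM in R7-I and at 6.78, 7.58 and 6.75 TPM in R7-III (log2 fold change -0.65 ± 0.0925, adjusted p = 0.00107 from limma). Cxcr3 and S1pr1, receptors of inflamed tissue and egress, were at 7.80 ± 0.528 and 8.57 ± 0.460 TPM and at 1.87 ± 0.456 and 1.44 ± 0.309 TPM. Their values overlapped between the clones. Of 15 integrin genes, Fermt3 (kindlin-3, an integrin activator) rose from 106 ± 4.15 to 134 ± 3.87 TPM and Itgb7 from 13.2 ± 0.740 to 18.2 ± 1.24 TPM, the latter call being lost without any 1 of the 6 libraries (adjusted p of up to 0.0273). Itgae, which encodes CD103 of tissue-resident cells, was at 10.7, 8.91 and 13.6 TPM in R7-I and at 6.81, 7.66 and 6.94 TPM in R7-III. The groups did not overlap, but Itgae did not pass (log2 fold change -0.55 ± 0.156, adjusted p = 0.032 from limma). Of 25 cytokine receptor genes and linked ligands, Csf1 and Il27ra (82.3 ± 2.34 to 98.1 ± 0.984 TPM) were called higher. Il7r was at 1.62 ± 0.449 and 1.01 ± 0.285 TPM (adjusted p = 0.374), and Klrg1 did not reach the level filter.

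T cell fate transcription factors were called at a share of 10.3%, near the 8.41% of all genes. Of 39 transcription factors tested, 2 were called higher and 2 lower, at a median log2 fold change of 0.01. Hopx, a small homeodomain protein found in effector and memory T cells (chromosome 5, 77086986 to 77115123), was at 11.2, 14.8 and 10.1 TPM in R7-I and at 0.14, 0 and 0.09 TPM in R7-III. It was also near 0 in R7-II (0.09 to 0.32 TPM), so that only the R7-I libraries were above 1 TPM (log2 fold change -3.58 ± 0.144 between R7-III and R7-I, adjusted p = 1.67e-07 from limma). Klf3, a Krüppel-like repressor (chromosome 5, 64803521 to 64832901), was at 18.1, 18.7 and 19.3 TPM in R7-I, at 10.4, 11.2 and 10.8 TPM in R7-III and at 29.3 ± 5.62 TPM in R7-II (log2 fold change -0.74 ± 0.111 between R7-III and R7-I, adjusted p = 0.00138 from limma). Tox, a factor induced by lasting receptor signals (chromosome 4, 6686353 to 6991557), was at 7.87, 7.55 and 8.85 TPM in R7-I and at 13.3, 14.9 and 13.97 TPM in R7-III (log2 fold change 0.73 ± 0.0715, adjusted p = 1.26e-04 from limma). Ikzf2 (Helios) went from 3.62 ± 0.399 to 5.46 ± 0.643 TPM, a call lost without any 1 of the 6 libraries (adjusted p of up to 0.0317). Klf2, which drives genes of recirculation, was at 9.14 ± 0.644 and 9.36 ± 0.558 TPM. Of 20 genes tested that mark resident memory cells, 0 were called in limma (11 at an unadjusted p under 0.05, against 3661 of all 11330 genes). The libraries of the clones did not overlap for 10 of these 20 genes, lower in R7-III, and for 5, higher. The shares over all genes were 12.4% lower and 29.5% higher. Of 16 genes of circulation and egress (12.5% called), Klf3 was called lower and Racgap1, which acts in cell division, higher.

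Glycolysis and sterol genes were called at shares of 21.4% and 14.3%, against 8.41% of all genes, and lists of oxidative phosphorylation, ribosomal proteins, amino acid supply and the Myc network at 6.58%, 5.06%, 4.65% and 2.0%. Of 28 glycolysis genes tested, 6 were called higher and 0 lower (median log2 fold change 0.11). Tpi1 (triose phosphate isomerase) rose from 223 ± 7.66 to 302 ± 13 TPM, and Eno3, an enolase, from 25.7 ± 3.81 to 51.5 ± 3.56 TPM. Gapdh, the most abundant, went from 4606 ± 182 to 5419 ± 190 TPM, a call lost after median-of-ratios scaling (adjusted p = 0.0395), under which 2 glycolysis genes were called. Of 35 sterol and fatty acid synthesis genes, 5 were called higher, among them Cyp51, a demethylase of the sterol pathway (86.3 ± 2.15 to 115 ± 0.990 TPM), and 2 after median-of-ratios scaling. Of 76 genes of oxidative phosphorylation, 4 were higher, led by the complex I subunit Ndufa3 (149 ± 6.65 to 213 ± 6.78 TPM), and 1 was lower, the ATP synthase subunit gene Atp5g1 (513 ± 14 to 385 ± 10.1 TPM). Of 50 genes of the Myc network and the nucleolus, 0 were higher and 1, Nop58, was lower (median -0.06), but 12 were lower after median-of-ratios scaling. The call of Nop58 was lost in 7 of the 9 fits without 1 library (adjusted p of up to 0.039 without R7-I replicate 1). Of 79 cytosolic ribosomal protein genes 4 were lower (Rpl5, Rps7, Rps18 and Rpl17, with log2 fold changes of -0.10 to -0.18), and 0 after median-of-ratios scaling. Each of these 4 calls was lost in 5 to 7 of the 9 fits without 1 library. Libraries did not overlap, lower in R7-III, for 46 of the 79 ribosomal genes and 26 of the 50 Myc network genes. Higher without overlap were 4 genes of either list. Over all genes tested, the shares were 12.4% lower and 29.5% higher. Among 43 genes of amino acid supply and ATF4, Asns and Nupr1 were called higher (log2 fold change 0.54 and 0.77), each lost in some fits without 1 library (adjusted p of up to 0.0193 and 0.0445 without R7-III replicates 2 and 1).

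Genes of interferon-induced GTPases, MHC class I presentation, cytokine response and death were called at shares of 5.26%, 7.69%, 10.0% and 10.0%. The share over all genes was 8.41%. Of 39 interferon-stimulated genes tested, 0 were called in limma (5 at an unadjusted p under 0.05, against 3661 of all 11330 genes). Their median log2 fold change was 0.16, with no overlap, higher in R7-III, for 15 (29.5% of all genes). Among 19 interferon-induced GTPases, Irgm2 was called higher (19.1 ± 1.21 to 29.3 ± 1.42 TPM), and among 26 genes of MHC class I presentation Psmb10, an immunoproteasome subunit, and Tapbp (tapasin). Of 20 cytokine response genes, the kinase Jak3 was called higher and the kinase Pim3 lower (log2 fold changes 0.21 and -0.22). The calls of Irgm2, Psmb10, Tapbp, Jak3 and Pim3 were lost without R7-I replicate 1, with an adjusted p between 0.0105 and 0.0156 from limma. Of 30 Bcl-2 family and death genes, 3 were called higher, among them the caspase Casp8 (log2 fold change 0.26) and the survival gene Bcl2l2 (2.03 ± 0.125 to 7.39 ± 0.801 TPM), the call of Casp8 being lost in 4 of the 9 fits without 1 library (adjusted p of up to 0.0161 without R7-I replicate 1). Xist was present in all libraries and was called higher in R7-III (133 ± 11.1 to 178 ± 8.57 TPM), while the Y-linked genes did not reach the level filter.

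Outside the cell cycle, the largest rises belonged to genes of varied function. Scpep1, a serine carboxypeptidase of the lysosome (chromosome 11, 88924020 to 88955442), was at 10.4, 10.3 and 8.97 TPM in R7-I, at 59.9, 64.0 and 68.5 TPM in R7-III and at 50.6 ± 4.87 TPM in R7-II. Its log2 fold change between R7-III and R7-I was 2.58 ± 0.0796 (adjusted p = 2.95e-08 from limma). Galectin-3 (Lgals3), a lectin that binds surface glycans (chromosome 14, 47373860 to 47386167), was at 1.5, 1.18 and 1.61 TPM in R7-I and at 14.2, 10.5 and 10.8 TPM in R7-III (log2 fold change 2.39 ± 0.171, adjusted p = 1.48e-05 from limma). Tlr1, a receptor for bacterial lipopeptides (chromosome 5, 64924680 to 64933600), was at 0.83 to 1.08 TPM in R7-I, 8.99 to 9.87 TPM in R7-III and 22.8 to 27.6 TPM in R7-II. Kit, the receptor of stem cell factor, was at 0.95, 0.94 and 1.02 TPM in R7-I and at 5.41, 5.48 and 5.11 TPM in R7-III (log2 fold change 1.68 ± 0.0889). The methyltransferase gene listed as 5830415F09Rik, now Trmo, which modifies transfer RNA, rose from 2.94 ± 0.605 to 17.4 ± 0.545 TPM. In each of these genes the lowest R7-III library was above the highest R7-I library. Gm6756, a transcribed pseudogene, was at 0.05, 0 and 0.12 TPM in R7-I and at 10.5, 10.7 and 10.3 TPM in R7-III. Of the 95 genes called over 2-fold higher, the R7-II mean was below both other clones for 42, between them for 42 and above both for 11.

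Fewer genes were lower in R7-III by more than 2-fold. Snhg6, a host gene of small nucleolar RNAs (chromosome 1, 9942025 to 9944118), was the most abundant of them, at 175, 189 and 178 TPM in R7-I, at 55.6, 58.8 and 59.5 TPM in R7-III and at 62.1 ± 4.55 TPM in R7-II (log2 fold change -1.62 ± 0.0537 between R7-III and R7-I, adjusted p = 4.67e-08 from limma). Ly6k, a member of the Ly6 surface antigens and the only one called of 19 Ly6 and SLAM genes tested, fell from 6.93, 8.65 and 4.90 TPM to 1.28, 1.33 and 0.38 TPM (log2 fold change -1.98 ± 0.261, adjusted p = 6.87e-04 from limma). Farp1, a guanine nucleotide exchange factor, fell from 3.65 ± 0.362 to 0.827 ± 0.238 TPM, and Adam19, a membrane metalloprotease, from 4.26 ± 0.122 to 1.52 ± 0.0321 TPM, while R7-II was at 12.1 ± 2.30 TPM for Adam19. Afp, the alpha-fetoprotein gene, was at 6.30 ± 0.727 and 2.13 ± 0.246 TPM, and Gcm1, a transcription factor of the placenta, at 1.90 ± 0.196 and 0.0767 ± 0.0551 TPM. The noncoding RNA genes 2610507I01Rik and 2210039B01Rik fell from 10.5 ± 0.657 to 3.84 ± 0.692 TPM and from 18.0 ± 2.35 to 7.34 ± 1.52 TPM. Apmap and Rsad1 were at 31.1 ± 0.976 and 13.6 ± 1.59 TPM and at 13.9 ± 0.501 and 5.61 ± 0.325 TPM, and both calls were lost without any 1 of the R7-I or R7-III libraries (adjusted p of up to 0.0314 and 0.029). Rprl3, a noncoding RNA gene related to Rpph1, was listed at 0 in all R7-III libraries and at 10.98, 11.16 and 11.21 TPM in R7-I. Of the 17 genes, 10 had an R7-II mean between the other clones and 6 above both.

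Genes around the rearranged receptor alpha locus (chromosome 14, 52427928 to 54224206) included several of the largest differences. Within 5 Mb, 103 genes were tested, of which 19 were called higher and 7 lower (25.2% called), and 8 of them differed by more than 2-fold (7.77%, against 0.989% of all genes). They were Tmem260, Rpph1, Sall2, Ppp1r3e and Bcl2l2, higher in R7-III, and Ccnb1ip1, Pnp2 and Myh7, lower. The window also held the granzyme genes Gzmc, called lower by less than 2-fold (log2 fold change -0.94), and Gzmb, which was not called. Ccnb1ip1 was at 23.6 ± 1.28 TPM in R7-I and at 0.0800 ± 0.0985 TPM in R7-III, with a log2 fold change of -4.51 ± 0.0817, the largest of all genes tested. Rpph1, the RNA of ribonuclease P, has copies of similar sequence, so its rise from 7.87 ± 1.21 to 101 ± 15.2 TPM is uncertain. Within 2 Mb of the alpha locus, 7 of 76 genes tested were called over 2-fold (9.21%), and within 10 Mb 9 of 151 (5.96%). Lgals3 lies within 10 Mb, just outside the 5 Mb window. Around the beta locus on chromosome 6, 1 of 27 genes tested differed by more than 2-fold, Ephb6, an Eph receptor without kinase activity (3.10 ± 0.307 to 14.8 ± 0.623 TPM). Genes that neighbour each other are not independent, and whether DNA around the locus differs between the lines was not tested.

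**Figure D5:**
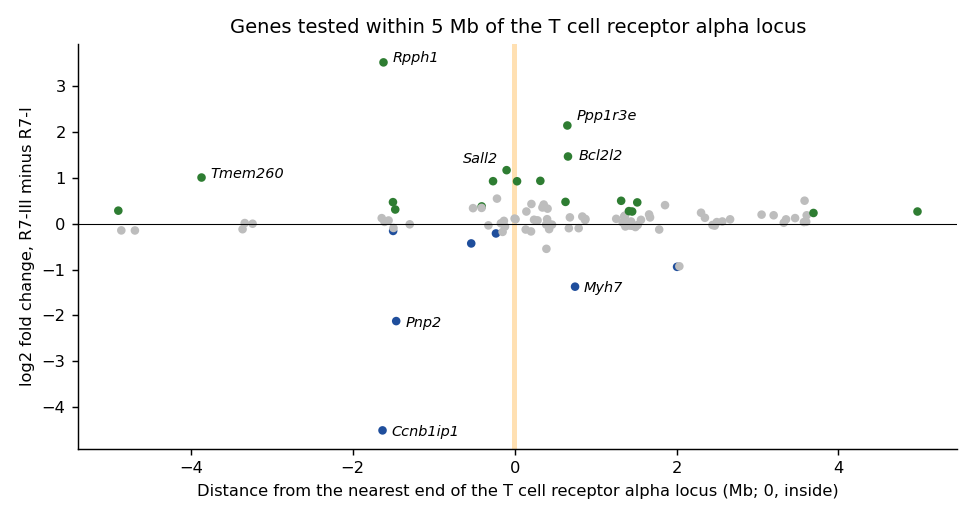
Log2 fold change of R7-III minus R7-I for 103 genes tested within 5 Mb of the receptor alpha locus, against the distance of each gene from the nearest end of the locus in Mb (negative before, positive after, 0 inside, shaded). Green points were called higher in R7-III, blue points lower, and grey points were not called, and the 8 genes named differed by more than 2-fold.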

How the data were processed

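Gene expression was measured by single-end 100-base RNA sequencing of poly(A) RNA (TruSeq mRNA) in 9 libraries, 3 for each clone. The authors mapped reads to the mouse genome mm10 and deposited TPM values per gene, which per the labels came from RSEM 1.2.11. The notes also list DESeq2 1.8.1, which needs counts and was not used here. TPM holds no depth, so counting error is not given. From the deposited TPM, log2(TPM + 1) was fitted with limma 3.58.1 (R 4.3.3; lmFit, eBayes with trend) over all 9 libraries in 1 fit, for genes with a maximum TPM above 1 (11330 of 24060), and R7-III was contrasted with R7-I. Genes with a Benjamini-Hochberg adjusted p below 0.01 were called. Tables and exact two-sided permutation tests used Python 3.11.15, pandas 2.3.3 and scipy 1.17.1, and the fit was tested on simulated data. The members, gene lists and tests were chosen with earlier results of these data known.

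Named were the 15 largest called differences over 2-fold in each direction whose libraries did not overlap, up to 4 called members with the largest log2 fold change and the most abundant member of each list, Cd5, Nr4a1, genes that the study followed (among them Itgae, Klf2, Cxcr3, Ctla4, S1pr1, Il7r, Pdcd1, Ifng and Klrg1), sex chromosome genes, and genes called over 2-fold within 5 Mb of the receptor alpha locus. Other genes in the text, among them Ccl3, Ccl4, Tnf, Il3, Gzmb, Top2a, E2f1, Kif11, Hmgb2, Smc2, Cdkn1a, Ccnd2 and Cd8a, were chosen after their values were seen. Alternatives were other pseudocounts, filters, scalings, thresholds and variance models, the 6 libraries alone, a replicate block and leaving out each library. Reads carried no strand, so genes that overlap or lie antisense to another cannot be told apart. Positions are GRCm38 (mm10) coordinates, and promoters are from RefSeq (GRCm38.p6). Some genes that the rule names are not reported here.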

Additional observations from a re-analysis of the deposited data

How the results depend on the processing

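No count changed its direction under the alternatives run, and no named gene did so where it was called in either fit. Some named genes that were not called changed sign, among them Klf2 (log2 fold change -0.084 to 0.058) and Cdkn1a (-0.053 to 0.21). Of 123 named genes called, 80 were called without each library in turn and 77 under every alternative, while 43 were lost in at least 1 fit without a library. At an adjusted p of 0.05, 2142 genes were called (1673 higher, 469 lower), among them 16 nucleotide synthesis, 22 histone and 16 G1 genes called higher. Quantile normalization called 427 higher and 255 lower, 54 over 2-fold higher, 9 histone and 6 G1 genes higher. Median-of-ratios scaling called 422 lower. Without a trend 102 were lower and 8 histone genes higher. Over 2-fold were 22 genes (18 higher, 4 lower) with a pseudocount of 5, 59 (50 higher, 9 lower) where TPM had to be at least 1 in every library, and 27 lower with a pseudocount of 0.1, and as many of the 22 and 59 did not overlap. Of histone genes, 4 were called higher at that TPM minimum and 8 with no filter.

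Leaving out 1 library gave 422 to 1076 genes called (350 to 883 higher, 69 to 193 lower), the lowest total and the fewest higher without R7-I replicate 1 and the fewest lower without R7-III replicate 2, and 86 to 113 over 2-fold (71 to 95 higher, 14 to 19 lower), of which 86 to 113 did not overlap. Called higher were 27 to 45 replication, 7 to 11 nucleotide, 14 to 21 repair, 37 to 65 mitosis, 6 to 13 histone and 5 to 14 G1 genes. The cause of these shifts was not tested, beyond there being fewer samples. Samples of R7-I and R7-III with the same replicate number correlated by 0.039, -0.045 and 0.089 in their deviations, and 2 of 6 correlated best with their own number. Whether equal numbers mark a shared batch cannot be told from deviations within so few libraries. With a replicate block 733 genes were called. TPM holds no depth, which leaves the precision of low genes unknown.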
